A study of Mus musculus with 6 samples.

Results

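The CCT chaperonin, also called TRiC, is the ring-shaped folding machine of the cytosol, and its 8 subunits are the products of *Tcp1*, *Cct2*, *Cct3*, *Cct4*, *Cct5*, *Cct6a*, *Cct7* and *Cct8*. These 8 genes were taken by symbol from a table of 23183 gene symbols, and all 8 were present and expressed well enough to be tested among 10326 genes. The RNA came from sorted CD4+CD8+ double positive (DP) thymocytes, the immature T cells that carry both coreceptors, of C57BL/6 mice at 6 weeks of age. The WT group held 3 libraries from *Nsrp1* f/f mice and the NSrp70-cKO group 3 libraries from *Nsrp1* f/f CD4Cre mice, so that both groups carried the floxed allele, and the Cre transgene was present in the cKO group alone. *Nsrp1* encodes NSrp70, a splicing factor of nuclear speckles, and the CD4 elements that drive Cre are meant to delete it in late double negative thymocytes, just before the DP stage, so that all later T cells inherit the deletion. Whether a library stands for 1 mouse or a pool of mice was not stated, and the p-values measure the spread between these libraries, which may in part be technical.

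CCT is built from 2 stacked rings, each with all 8 subunits in a fixed order, and it closes over an unfolded protein in a cycle driven by ATP. Actin and tubulin depend on it to reach their native state, as do many proteins with WD40 repeats such as the cell cycle activator Cdc20 and G protein beta subunits. Prefoldin hands nascent actin and tubulin to CCT, phosducin-like proteins act as its cochaperones, and the tubulin folding cofactors take over the tubulins that it releases. Since a ring needs every subunit, the balance among the 8 mRNAs can be read alongside their level.

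The deposited values were FPKM (fragments per kilobase of transcript scaled by the mapped fragments of a library), in which levels of different genes can be compared per length. Depth, estimated from the steps of 1 fragment at single-transcript genes, was 20.7 to 20.8 M (mega) fragments in WT and 13.1 to 20.6 M in cKO. FPKM totals per library were 521296 to 531517 for WT and 701396 to 850548 for cKO. WT libraries differed from each other by 1.49 to 1.58 times counting noise (chi-square per gene) and cKO libraries by 28.1 to 65.9 times, so that the 3 WT libraries may hold little biological spread. WT values are therefore given as a mean with a range, and calls are repeated with the mean of the 3 WT libraries entered as 1 sample. *Nsrp1*, listed under its older symbol *Ccdc55*, had an FPKM of 20.2, 20.7 and 21.1 in WT and 17.7, 15.8 and 15.0 in cKO (log2 fold change -0.34, limma adjusted p = 0.00675, and 0.184 with WT as 1 sample), lower in every cKO library but still present. *Xist* ranged from 69.8 to 72.0 FPKM in WT and from 4.07 to 5.44 in cKO, and the Y-linked *Uty*, *Kdm5d*, *Ddx3y* and *Eif2s3y* were at 0 in each WT library and at 5.83 or more in each cKO library. The effect of genotype and that of the sex of the source animals therefore cannot be told apart in any comparison below. All 10 DP markers were expressed, *Rag1* at 964 to 983 FPKM in WT and 1211 to 1671 in cKO, whereas the 6 thymic epithelial markers together summed to 3.56 to 3.98 FPKM in WT and 1.92 to 3.67 in cKO, nearly all of it *Epcam*, with *Krt5*, *Krt14* and *Foxn1* listed at 0 throughout.

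All 8 CCT subunit mRNAs were higher in NSrp70-cKO than in WT DP thymocytes, although *Cct4* was not (log2 fold change -0.031) when every library was scaled to the same FPKM total. Mean FPKM ratios ran from 1.45 for *Cct4* to 2.15 for *Tcp1*, and for each of the 8 genes every cKO library lay above every WT library. Each of the 8 passed limma on log2(FPKM + 1) at an adjusted p of 0.05, and none was lower. The background was broad, since 35.8% of all tested genes were called higher and 29.8% lower by the same test (65.5% in either direction), and in 39.1% of them all cKO libraries lay above all WT libraries. The median log2 fold change of the 8 subunits was 0.83, against 0.039 over all tested genes, whose quartiles were -0.37 and 0.43. By WT level the 8 lay between the 89.9 (*Cct6a*) and 97.1 (*Cct2*) percentile of tested genes, so that this background is not matched for level. A background of genes at a like level was not tested. With WT as 1 sample, 2 of 8 (*Cct3* and *Cct6a*) stayed past the threshold, where 7.21% of all genes were called higher and 15.9% in either direction. In bulk RNA, fewer cells of a type and less RNA per cell cannot be told apart, so that none of these values is a level per cell.

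**Figure D1:**
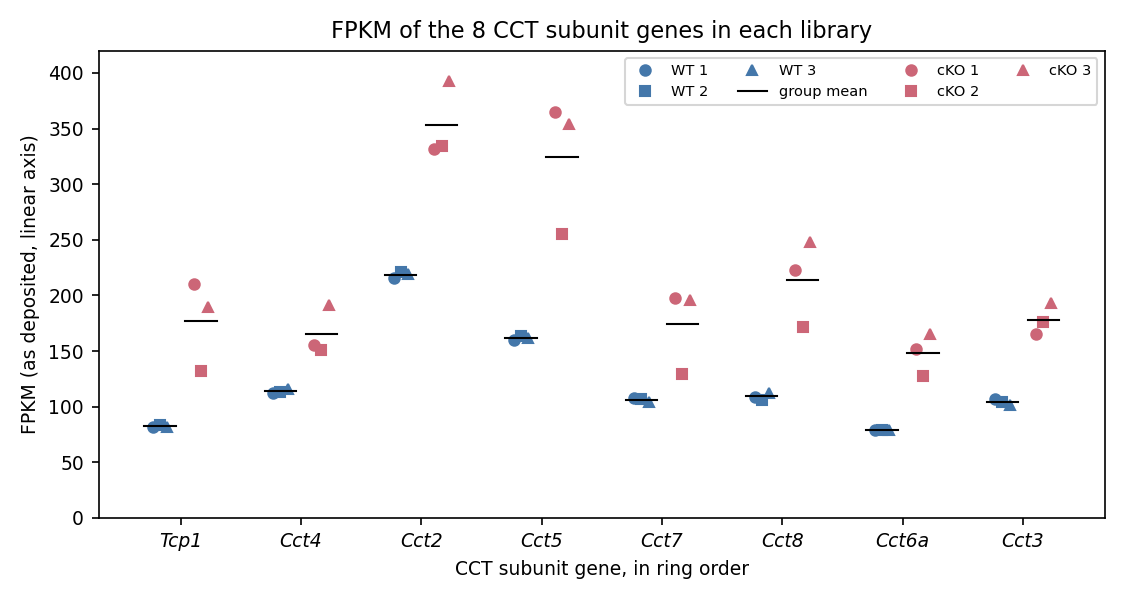
FPKM as deposited (linear axis, from 0) of the 8 CCT subunit genes, placed in the order of the subunits around the ring. Each symbol is 1 library (blue, WT 1 to 3; red, cKO 1 to 3) and each black bar a group mean. For every gene the 3 cKO libraries lie above the 3 WT libraries, and WT libraries nearly coincide, from 971.6 to 977.8 FPKM when summed over the 8 genes, whereas the cKO libraries spread from 1477 to 1929.

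The 4 subunits with the higher ATP affinity (*Tcp1*, *Cct4*, *Cct2* and *Cct5*) sit side by side in the ring. *Tcp1* (ENSMUSG00000068039.13, chr17:12915701-12925067 of GRCm38, plus strand) encodes CCT alpha, the founding member, first known from the t-complex of the mouse. Its FPKM was 81.9, 83.7 and 81.3 in WT 1, 2 and 3 and 210, 132 and 189 in cKO 1, 2 and 3. The lowest cKO library thus lay well above the highest WT library, and cKO 2 stood below the other two. Its log2 fold change of 1.07 (standard error 0.17, limma adjusted p = 0.0014) was the largest of the 8 and lay at the 97.1 percentile of all tested genes. With WT as 1 sample the adjusted p was 0.053.

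*Cct4* (ENSMUSG00000007739.10, chr11:22990519-23003780, plus strand) encodes CCT delta. WT libraries held 112, 114 and 116 FPKM, and cKO libraries 155, 151 and 191. The groups did not overlap, but this was the smallest of the 8 differences, with a log2 fold change of 0.53 (standard error 0.10, limma adjusted p = 0.00357, and 0.126 with WT as 1 sample). A correction of each library for GC content and transcript length lowered it to 0.30 (adjusted p = 0.0454).

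*Cct2* (ENSMUSG00000034024.8, chr10:117051001-117063814, minus strand) encodes CCT beta and was the most abundant of the 8 in both groups. It had 215, 221 and 219 FPKM in WT against 332, 334 and 393 in cKO. All cKO libraries exceeded all WT libraries, cKO 1 and cKO 2 being nearly equal. The log2 fold change was 0.68 (standard error 0.092, limma adjusted p = 0.000781, and 0.0804 with WT as 1 sample), and 0.42 once corrected for GC content and length.

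*Cct5* (ENSMUSG00000022234.15, chr15:31590800-31601804, minus strand) encodes CCT epsilon, whose mutation in people is known from a hereditary sensory neuropathy. Its libraries held 160, 163 and 161 FPKM in WT and 364, 256 and 354 in cKO. Here cKO 2 again stood below the other cKO libraries, though far above WT. The log2 fold change was 0.98 (standard error 0.14, limma adjusted p = 0.00105, and 0.0564 with WT as 1 sample).

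The other side of the ring holds *Cct7*, *Cct8*, *Cct6a* and *Cct3*. *Cct7* (ENSMUSG00000030007.8, chr6:85451514-85468475, plus strand) encodes CCT eta. WT libraries had 108, 107 and 104 FPKM and cKO libraries 197, 130 and 196. With cKO 2 nearer to WT than the other two, *Cct7* had the highest adjusted p of the 8 (log2 fold change 0.68, standard error 0.17, limma adjusted p = 0.00886, and 0.129 with WT as 1 sample).

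*Cct8* (ENSMUSG00000025613.13, chr16:87483326-87495873, minus strand) encodes CCT theta. Its FPKM was 109, 106 and 112 in WT and 223, 171 and 248 in cKO. The groups were well apart, with a log2 fold change of 0.95 (standard error 0.14, limma adjusted p = 0.00104, and 0.0538 with WT as 1 sample).

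*Cct6a* (ENSMUSG00000029447.11, chr5:129786998-129846371, plus strand) encodes CCT zeta in somatic tissues. Its WT libraries had 79.3, 78.9 and 79.0 FPKM and its cKO libraries 152, 127 and 165. This was the lowest of the 8 genes in both groups, and its log2 fold change of 0.89 (standard error 0.10, limma adjusted p = 0.000482) held with WT as 1 sample (adjusted p = 0.0452).

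*Cct3* (ENSMUSG00000001416.13, chr3:88297116-88321767, plus strand) encodes CCT gamma. It had 107, 104 and 102 FPKM in WT and 166, 176 and 193 in cKO, the tightest cKO libraries among the 8 relative to their mean. The log2 fold change was 0.76 (standard error 0.079, limma adjusted p = 0.000312), and it too held with WT as 1 sample (adjusted p = 0.0489).

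Between 3682 and 12114 estimated fragments stood behind each of these values, a counting error of 0.909% to 1.65%, which is small beside the spread between cKO libraries. Several loci limit how cleanly reads can be assigned. The exons of the longest *Tcp1* transcript share 571 bases with *Acat3* on the opposite strand, those of *Cct6a* share 452 with *Psph*, those of *Cct7* share 214 with *Pradc1* and those of *Cct8* share 192 with *Usp16*. The kit marks strand, but the strand setting of the quantification was not stated. The FPKM of these 4 neighbours was lower than that of their CCT partner, at means of 17.9 for *Acat3*, 21.8 for *Psph*, 8.75 for *Pradc1* and 22.8 for *Usp16* in WT and of 30.1, 33.2, 11.4 and 28.8 in cKO. Processed pseudogenes near-identical to *Cct3* (*Cct3-ps1*, 91.4% over 1650 bases) and to *Cct7* (*Gm5380*, 93.5% over 569 bases) had no row in the table, so that reads shared with them are uncertain for these 2 genes. *Tcp1* also matched the protein-coding *Acat2* (98.7% over 445 bases), which had values of its own, at means of 11.2 FPKM in WT and 19.7 in cKO. How reads were shared between *Tcp1* and *Acat2* is likewise uncertain.

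Since the 8 genes moved together, the annotated promoters of RefSeq (GRCm38.p6, 250 bases before to 50 after each start) were searched on both strands for 6 short motifs. Windows were found for 7 of the 8 genes, 9 windows in all among 32851 of the genome, and *Cct4* had none. The GC box GGGCGG, bound by Sp factors, was in 8 of the 9 windows, with all 7 genes among them, and in 35.7% of all windows. CCAAT, bound by NF-Y, was in 4 of the 9 windows (*Tcp1*, *Cct3*, *Cct6a* and *Cct7*) and in 37.4% of all windows. The E-box CACGTG, a Myc site, was in 0 of the 9 and in 7.15% of all windows. CCGGAAG, the core bound by ETS family factors, was in 8.86% of all windows and in 3 of the 9, 1 for each of 3 members. These 3 matches are shown because each lies within 40 bases of the annotated start, with the motif in capitals, 5′ to 3′ on the strand of the gene:
Tcp1, first motif base at position -4, chr17:12916314-12916342, plus strand: gcagccccctaCTTCCGGcgttttcagtt
Cct2, first motif base at position -18, chr10:117063853-117063881, minus strand: gagccgctacgCTTCCGGcccagcccgcc
Cct8, first motif base at position -37, chr16:87495889-87495917, minus strand: gggcggggcgaCCGGAAGtagggggacgc
Positions count from 1 at the annotated start, with -1 the base before it. In *Tcp1* and *Cct2* the motif lies on the opposite strand and so reads CTTCCGG.

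Heat shock factors bind inverted repeats of GAA, and CCT genes are among their known targets in other cells. GAANNTTC was in 7.86% of all windows and in 1 of 9 windows of the CCT genes, and TTCNNGAA was in 8.52% of all windows and in 2. These 3 matches are shown in the same way because *Hsf1* is described below:
Cct2, second annotated start, position -42, chr10:117063399-117063428, minus strand: ccccaagtgaaGAAGTTTCtagcaggacct
Cct5, position -34, chr15:31601862-31601891, minus strand: acagcggccgaTTCCAGAAgctactctgcg
Cct6a, position 25, chr5:129787369-129787398, plus strand: gcgtaagacttTTCGAGAAgaccccgcaga
Matches of different motifs overlapped 0 times in these windows. A match is a run of letters and was not tested for binding. The 3 genes with a heat shock element had log2 fold changes of 0.68, 0.98 and 0.89. Since they are among the 8, whose values run from 0.53 to 1.07, their lying in that range carries no information. Whether the motif goes with the rise was not tested.

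Among WT libraries the order of levels was *Cct2* (218 FPKM), *Cct5* (162), *Cct4* (114), *Cct8* (109), *Cct7* (106), *Cct3* (104), *Tcp1* (82.3) and *Cct6a* (79.1). The ranges of *Cct4*, *Cct8*, *Cct7* and *Cct3* overlapped from neighbour to neighbour, and the other neighbours were separate. In cKO the order was *Cct2* (353 ± 34.4, SD, n = 3), *Cct5* (325 ± 60.1), *Cct8* (214 ± 38.9), *Cct3* (178 ± 13.8), *Tcp1* (177 ± 40.2), *Cct7* (174 ± 38.6), *Cct4* (166 ± 22.1) and *Cct6a* (148 ± 19.1). There the ranges of all neighbours overlapped except those of *Cct5* and *Cct8*. *Cct4* thus went from the third place in WT to the seventh in cKO, while *Cct2*, *Cct5* and *Cct6a* kept their places.

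The summed CCT FPKM was 972, 978 and 975 in WT 1, 2 and 3 and 1799, 1477 and 1929 in cKO 1, 2 and 3, a ratio of means of 1.78. As a share of all FPKM in a library it was 0.183% to 0.188% in WT and 0.227%, 0.211% and 0.227% in cKO, a ratio of 1.20. The cKO libraries had larger FPKM totals, and the rise of the subunits was therefore smaller against the total than against the median gene. Across the 8 subunits the median log2 difference from the WT mean was 0.92 in cKO 1, 0.64 in cKO 2 and 0.97 in cKO 3. After scaling by size factors, 7 of 8 subunits were lowest in cKO 2 among the cKO libraries (*Cct3* was lowest in cKO 1), 3 were highest in cKO 1 and 5 in cKO 3. cKO 2 also had the smallest FPKM total of the cKO libraries, and the part of that in its lower values was not tested.

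Shares of the summed CCT FPKM do not depend on scaling between libraries. *Tcp1* made up 8.43%, 8.56% and 8.34% of it in WT and 11.7%, 8.95% and 9.82% in cKO, all cKO libraries above all WT libraries. *Cct5* took 16.6% (16.5% to 16.7%) in WT and 18.6% ± 1.50 (SD, n = 3) in cKO, *Cct8* 11.2% (10.9% to 11.5%) and 12.3% ± 0.627, and *Cct6a* 8.12% (8.07% to 8.17%) and 8.54% ± 0.104, each without overlap. *Cct4* was the reverse, with 11.5%, 11.6% and 11.9% in WT and 8.64%, 10.2% and 9.90% in cKO, all cKO libraries below. For these 5 subunits the exact two-sided permutation p was 0.1, the smallest that 3 against 3 libraries allow, and 0.16 after Benjamini-Hochberg adjustment over the 8 subunits. The cKO shares of *Cct2*, *Cct3* and *Cct7* overlapped those in WT, with means of 22.4% and 20.5%, 10.7% and 10.4%, and 10.9% and 9.97%. The side of the ring with *Tcp1*, *Cct4*, *Cct2* and *Cct5* held 59.1% (58.6% to 59.5%) in WT and 58.8% ± 0.344 in cKO, with overlapping libraries. With each library corrected for GC content and length, the log2 fold change of *Cct8* (0.64) lay below the subunit median of 0.69 and that of *Cct7* (0.80) above it, the reverse of their order here.

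**Figure D2:**
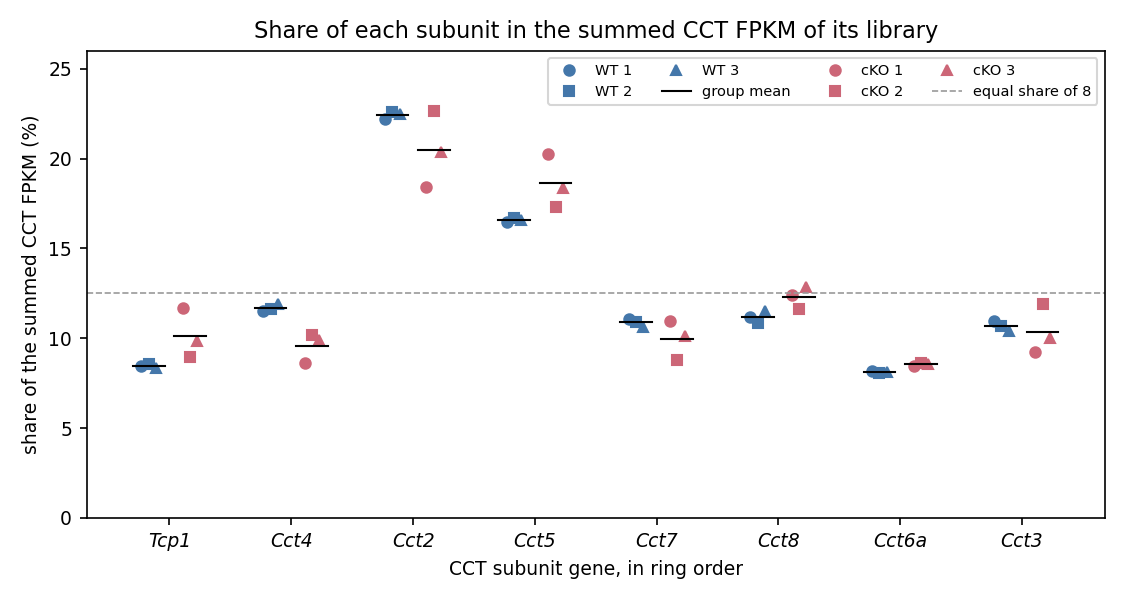
Share of each subunit (percent, linear axis from 0) in the summed CCT FPKM of its own library, with the subunits in ring order. Symbols are single libraries (blue, WT; red, cKO), black bars group means, and the dashed line an equal share of the 8. *Tcp1*, *Cct5*, *Cct8* and *Cct6a* lie higher in every cKO library and *Cct4* lower, its mean going from 11.7% to 9.58%.

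The size of the rise depended on how libraries were brought to one scale. Quantile normalization lowered the median log2 fold change of the subunits to 0.42 and left 6 of 8 called higher, with 33.7% of all genes called higher, *Cct4* at 0.13 (adjusted p = 0.117) and *Cct7* at 0.29 (adjusted p = 0.0624) missing the threshold. Scaling every library to the same FPKM total shifted the median of all tested genes to -0.45. On that scale *Tcp1* (0.51), *Cct5* (0.43), *Cct8* (0.39) and *Cct6a* (0.33) were called higher, where 8.74% of all genes were. There *Cct3* had a log2 fold change of 0.21, *Cct7* of 0.13 and *Cct2* of 0.12, none of them called, and *Cct4* turned to -0.031. The median of the subunits was 0.27 on the same scale and so still lay above that of all genes. After correction of each library for GC content and transcript length all 8 were called higher, at 0.30 to 0.92, beside 31.9% of all genes. The same held with the replicate number as a block, beside 34.0% of all genes, and whichever single library was left out, beside 30.4% to 40.1%.

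**Figure D3:**
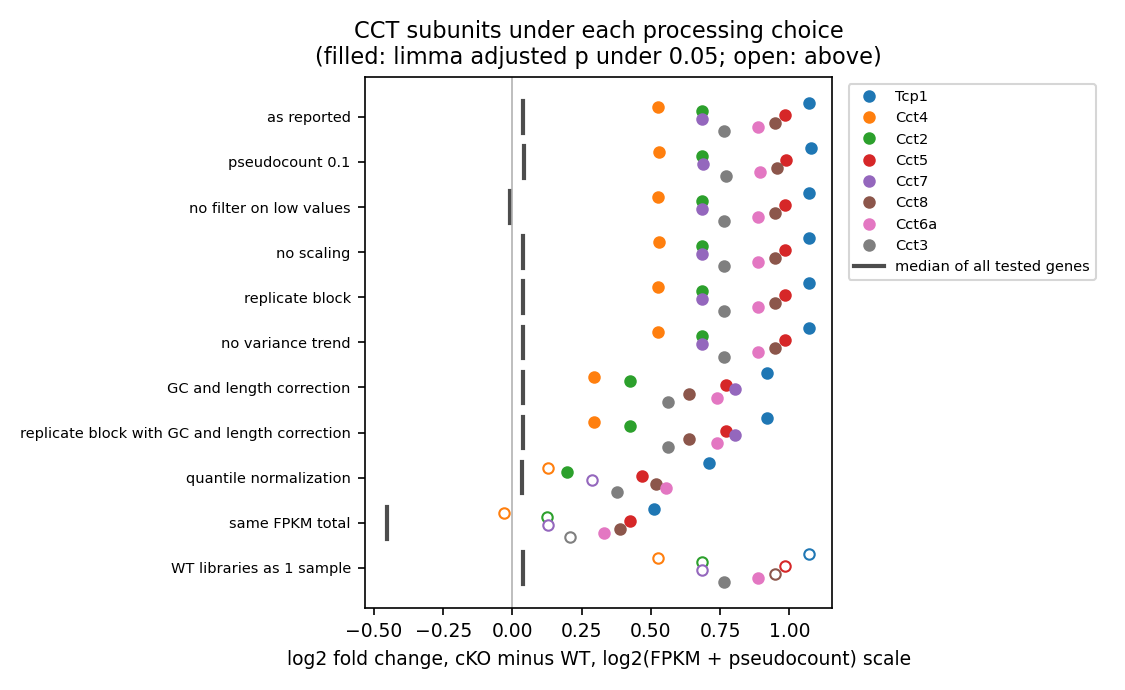
Log2 fold change (cKO minus WT, on the log2(FPKM + pseudocount) scale) of each CCT subunit under each way of processing the values, 1 row per setting. Filled points passed a limma adjusted p of 0.05, open points did not, and the dark tick is the median of all tested genes. The subunits lie to the right of that tick in every row. With the same FPKM total, *Cct4* lies at -0.031.

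Partners that feed or regulate CCT were higher as well. Of 10 prefoldin and phosducin-like genes, 9 were tested and all 9 were called higher, beside 35.8% of all tested genes, with a median log2 fold change of 0.70 (*Pdcl2* was listed at 0 in every library). *Pfdn1*, a prefoldin subunit, had 30.0, 30.1 and 31.1 FPKM in WT and 62.0, 53.0 and 74.0 in cKO (log2 fold change 1.01, limma adjusted p = 0.000496). *Pfdn5*, the most abundant of them, rose from a mean of 275 to 518 FPKM (0.90), *Pfdn4* from 21.2 to 38.0 (0.80), *Vbp1*, which encodes the third prefoldin subunit, from 42.4 to 73.4 (0.78), *Pfdn6* from 114 to 181 (0.65) and *Pfdn2* from 107 to 140 (0.37). Corrected for GC content and length, 6 of the 9 were called higher, beside 31.9% of all genes. *Pfdn4* then went to -0.056, *Pfdn2* to 0.065 and *Pfdn6* to 0.21, none of them called, and *Vbp1* to 0.18. With the same FPKM total, *Pfdn2* went to -0.19 and *Txndc9* to -0.030, and 3 of the 9 were called higher, beside 8.74% of all genes. With WT as 1 sample 3 of the 9 were called higher as well, beside 7.21%.

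Tubulin folding cofactors moved less uniformly, with 3 of 5 called higher and 0 lower, beside 35.8% and 29.8% of all genes, and a median of 0.42. *Tbcb*, which acts on alpha tubulin, went from a mean of 36.5 to 75.6 FPKM (log2 fold change 1.00, limma adjusted p = 0.00268). *Tbca*, which captures beta tubulin, went from 246 to 457 (0.86) but turned to -0.21 when corrected for GC content and length. *Tbcc* went from 12.4 to 16.9 (0.42) and turned to -0.11 with the same FPKM total. *Tbcd* and *Tbce* overlapped between the groups, at 0.35 and -0.23. *Tbce* was called lower with the same FPKM total (-0.77, adjusted p = 0.0187), when corrected for GC content and length (-0.64, adjusted p = 0.0197) and without cKO 2 (-0.44). *Tbcd* was called higher under that correction (0.58) and without cKO 2 (0.55), and had the opposite sign with the same FPKM total (-0.18, not called). With WT as 1 sample, 0 of the 5 passed.

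Among 16 actin and tubulin genes 14 were tested, 6 were called higher and 1 lower, with a median of 0.21, and the share called higher was near the 35.8% of all genes, so that the count says little about the clients as a list. *Tuba1b* had 276, 284 and 273 FPKM in WT and 541, 487 and 606 in cKO (log2 fold change 0.96, limma adjusted p = 0.000358), and *Tuba1c* went from a mean of 20.9 to 40.4 (0.91). *Tubb5*, the main beta tubulin here, went from 500 to 847 FPKM (0.75), a rise that quantile normalization reduced to 0.036 (adjusted p = 0.757). *Actb*, the most abundant client, had 1483, 1482 and 1472 FPKM in WT and 1312, 1663 and 1164 in cKO, so that the groups overlapped, and its log2 fold change was -0.12 (adjusted p = 0.518). It was called lower after quantile normalization (-0.93, adjusted p = 0.0105), with the same FPKM total (-0.68, adjusted p = 0.0117) and without cKO 2 (-0.25, adjusted p = 0.0169). The gene called lower was *Tubb4a*, at 2.27 and 0.983 FPKM, named after its values were seen. On the quantile scale 4 were called higher and 4 lower, beside 33.7% and 29.4% of all genes. On the same-total scale 2 were higher and 7 lower, beside 8.74% and 59.9% of all genes.

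Among 11 WD40 repeat clients 2 were called higher and 5 lower, beside 35.8% and 29.8% of all genes, with a median of -0.19. On the quantile scale 1 was higher and 6 lower, beside 33.7% and 29.4% of all genes. With the same FPKM total 0 were higher and 10 lower, beside 8.74% and 59.9% of all genes. *Gnb2*, a G protein beta subunit, had 228, 225 and 216 FPKM in WT and 121, 140 and 112 in cKO, without overlap (log2 fold change -0.85, limma adjusted p = 0.000401). *Fzr1*, a coactivator of the anaphase-promoting complex, was at -0.55 and *Rptor*, the scaffold of mTORC1, at -0.54, both called lower, but both changed sign when corrected for GC content and length (0.017 and 0.096, not called). *Cdc20*, the mitotic coactivator, went from a mean of 62.2 to 89.9 FPKM (0.52, and -0.030 with the same FPKM total). *Strap*, named after its values were seen, was the other one called higher, at 0.37. It was called lower with the same FPKM total (-0.19, adjusted p = 0.0398) and was not called after quantile normalization (0.12) or the correction for GC content (0.14).

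**Figure D4:**
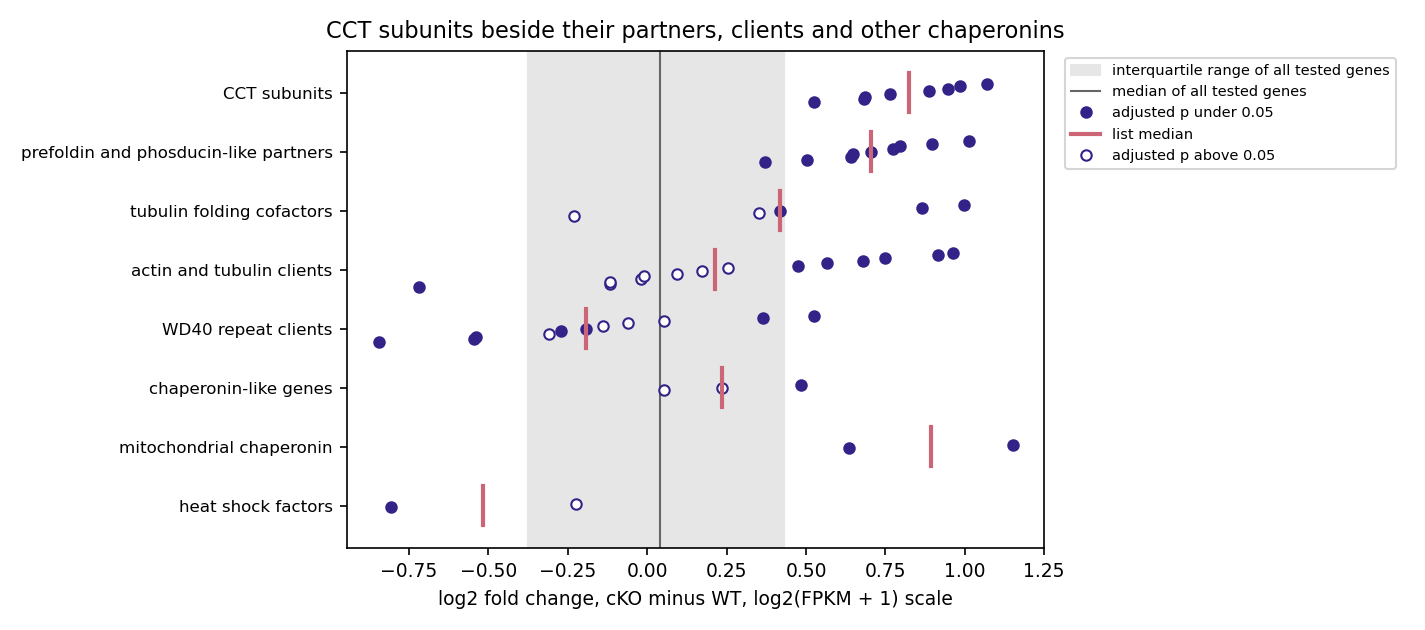
Log2 fold change (cKO minus WT, log2(FPKM + 1) scale) of each tested gene of the CCT subunits, their partners, clients and other chaperonins, 1 row per list. Filled points passed a limma adjusted p of 0.05, open points did not, red ticks are list medians, the grey band is the interquartile range of all tested genes and the line their median. All CCT and prefoldin or phosducin-like genes but *Pfdn2* lie to the right of the band, whereas the WD40 clients scatter to both sides around -0.19.

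Other chaperonins were compared for context. The mitochondrial chaperonin, a different ring that works with a separate lid, was higher in both its parts: *Hspe1* went from 109, 104 and 104 FPKM to 235, 208 and 270 (log2 fold change 1.15, limma adjusted p = 0.000222), and *Hspd1* from 68.0, 66.1 and 65.5 to 88.4, 112 and 113 (0.63, adjusted p = 0.00163, but 0.080 and not called with the same FPKM total). Of the chaperonin-like genes, the testis paralogs *Cct6b* and *Cct8l1* were below 0.3 FPKM in every library and not tested. Of those linked to Bardet-Biedl syndrome, *Mkks* was called higher, from 7.34 to 10.7 FPKM (0.48, and -0.019 with the same FPKM total), while *Bbs10* (0.24) and *Bbs12* (0.052) were not. *Hsf1*, the main heat shock factor, was lower, with 24.9, 24.5 and 25.7 FPKM in WT and 14.3, 16.5 and 11.3 in cKO (log2 fold change -0.81, limma adjusted p = 0.00124, and 0.0529 with WT as 1 sample). *Hsf2* overlapped between the groups, at -0.22.

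Markers of dividing cells and of other cells were read beside the CCT genes. All 10 proliferation markers were called higher (35.8% of all genes were), with a median log2 fold change of 1.12 and a summed FPKM of 1042 to 1051 in WT and 2116 to 2457 in cKO, and all 10 passed also with WT as 1 sample, after quantile normalization and with the same FPKM total, where 7.21%, 33.7% and 8.74% of all genes were. Of 10 DP markers 6 were higher and 3 lower, beside 35.8% and 29.8% of all genes. After quantile normalization, which turned *Rag1* to -0.18, 1 was higher and 5 lower, beside 33.7% and 29.4% of all genes. The summed FPKM of the DP markers was 5097 to 5182 in WT and 6947 to 9039 in cKO. Of 9 mature single-positive markers 6 were lower, beside 29.8% of all genes, and 1 higher, with a median of -1.67, for instance *Ccr7* at 15.1 to 16.2 FPKM in WT and 1.16 to 2.50 in cKO. The part of these shifts in the CCT values was not tested. The 7 myeloid markers together summed to 3.99 to 4.50 FPKM in WT and 4.24 to 5.22 in cKO, most of it *Lyz2* (2.11 to 2.93 over the 6 libraries) and *Itgam* (1.27 to 1.83). Of the B cell markers 1 was tested and called higher, *Cd79b*, at 21.5 to 23.0 FPKM in WT and 25.6 to 38.3 in cKO, and the erythroid *Hba-a1* was at 0.416 to 1.00 in WT and 3.27 to 10.4 in cKO.

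The genes whose profile over the 6 libraries was most like the mean CCT profile were sought among 6311 tested genes with a mean FPKM of at least 10. Likeness was the root mean square difference of log2 values, each relative to its own WT mean. The 5 closest were *Ube2l3*, a ubiquitin-conjugating enzyme (0.025), *Dera*, a deoxyribose-phosphate aldolase (0.025), *Cdc42*, a small GTPase (0.032), *Hn1* (0.034) and *Mdh2*, the mitochondrial malate dehydrogenase (0.034). *Ube2l3* had 69.8, 69.9 and 72.9 FPKM in WT and 133, 109 and 141 in cKO, with cKO 2 lowest, as in most subunits. Since these 5 were picked as the closest of 6311 genes and the subunits were not, their values cannot be ranked against those of the subunits. The subunits differed from their mean profile by 0.050 for *Cct6a* up to 0.21 for *Tcp1* and 0.22 for *Cct4*. *Tcp1* and *Cct4*, the largest and the smallest rise, were thus the 2 members farthest from the common profile.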

How the data were processed

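The authors prepared poly(A)-enriched, directional libraries, trimmed the paired-end reads and aligned them with TopHat to mm10. The deposited values are the FPKM of the authors' Cufflinks run, 1 per symbol in each library. Tool versions, annotation and strand setting are not given in the sources used here. The authors' count test with DESeq2 was not repeated, since FPKM values are not counts. Of the 265 to 351 low values per library at single-transcript genes, 69.7% to 76.9% gave whole fragments (within 0.1). Depth was estimated from these steps (assumed fragment length 200), so that the percentage is not an independent check of it. It was not enough to recover counts.

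FPKM values were divided by median-of-ratios size factors, and log2(FPKM + 1) of genes at 1 or more in at least 3 libraries was compared between genotypes in limma 3.58.1 under R 4.3.3 (lmFit, eBayes with trend), with p-values adjusted by the Benjamini-Hochberg method over all 10326 genes at 0.05. The fit was also run on simulated data, but no outcome is reported here and no conclusion is drawn from it. Fold changes on this scale understate those of low genes. Loci are from GENCODE release 21 (GRCm38), and near copies (at least 90% over 300 bases) were found with BLAST 2.17.0. The members and all gene lists were chosen with earlier results of these data known. Genes named with values are every CCT subunit, in the other lists the 3 with the largest change and the defining members, and the 5 most like the CCT profile. Also named are *Nsrp1*, the sex-linked genes, genes that overlap or resemble a subunit, genes too low to test and single marker genes. *Tbcd*, *Tbce*, *Txndc9*, *Strap* and *Tubb4a* were named outside these rules. Some marker genes are not reported here. Replicate numbers come from the labels, which do not say whether libraries were paired. Correlations of same-numbered WT and cKO deviations were -0.022, 0.038 and 0.031. Since WT libraries differed by little more than counting noise, these correlations cannot show whether libraries were paired.

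Alternatives were a pseudocount of 0.1, no filter, no scaling, quantile normalization, the same FPKM total, a replicate block, no variance trend, a correction of each library by splines (5 degrees of freedom) of GC content and transcript length, that correction with the block, the WT libraries as 1 sample and each library left out.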

Additional observations from a re-analysis of the deposited data

How the results depend on the processing

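Of 1013 recomputed values, 880 kept their direction and side of the threshold or, where there was no threshold, stayed within 1.5 times (counts) or within 1 SD of the cKO libraries (medians and ratios; 0.1 for the median of all genes). The pseudocount, the filter, no scaling and the variance trend changed no call of a CCT subunit. With a replicate block, all 8 subunits were called higher, as without it, and among the other genes recomputed one by one the block changed the call of *Pradc1* (0.33, then called) and no other. Same-numbered libraries did not deviate together, but WT libraries spread too little for this to show whether they were paired with cKO libraries. With the block and the GC and length correction together, 5 prefoldin and phosducin-like genes and 1 WD40 client were called higher, and 1 WD40 client with the correction alone. Counting the WT libraries as 1 sample left 1645 genes called in place of 6766. It left fewer CCT subunits, prefoldin and phosducin-like genes, cofactors, clients and mitochondrial chaperonin genes called higher, as it did among all tested genes. A drop in that fit therefore says little about a list. Log2 fold changes in that fit were as reported (*Tcp1* 1.07, *Cct2* 0.68, *Cct4* 0.53, *Cct5* 0.98, *Cct7* 0.68, *Cct8* 0.95). The residual spread in it came from the cKO libraries alone. The part of this and of the smaller number of samples in the lost calls was not tested.

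With the same FPKM total, 4 CCT subunits, 3 prefoldin and phosducin-like genes, 1 cofactor, 2 actin or tubulin genes, 0 WD40 clients and 1 mitochondrial chaperonin gene were called higher. Of all tested genes 8.74% were called higher on that scale, against 35.8% as reported. The CCT median was then 0.27 and the ratio of summed CCT values 1.20, with *Cct2* at 0.12, *Cct3* at 0.21, *Cct7* at 0.13 and *Cct4* at -0.031. Changed signs on that scale were also those of *Bbs10* (-0.042), *Bbs12* (-0.29), *Cd79b* (-0.026), *Cdc20* (-0.030), *Itgam* (-0.18), *Mkks* (-0.019), *Pfdn2* (-0.19), *Pradc1* (-0.18), *Strap* (-0.19), *Tbcc* (-0.11), *Tbcd* (-0.18), *Txndc9* (-0.030) and *Usp16* (-0.22). Quantile normalization gave a CCT median of 0.42, *Cct4* at 0.13, *Cct7* at 0.29, 1 WD40 client called higher (33.7% of all genes were) and *Rag1* at -0.18. The GC and length correction, with or without the block, reversed *Bbs12* (-0.27), *Fzr1* (0.017), *Pfdn4* (-0.056), *Rptor* (0.10) and *Tbca* (-0.21). The cause of these changes was not tested.

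Leaving out 1 library at a time gave 5404 to 7637 genes called, 8 CCT subunits called higher each time and a CCT median of 0.75 to 0.95. *Bbs12* ranged from -0.0031 to 0.13, and the change in the *Cct3* share from -1.09 to 0.26 percentage points. *Pfdn2* lost its call without any of the 3 WT libraries or cKO 3, and *Usp16* without WT 2. Depth limits little here, since each CCT value rests on at least 3682 estimated fragments. With 3 libraries a group, shares could not reach an exact p below 0.1.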
